A study of Mus musculus with 18 samples.

Results

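H3K9me2 and H3K27me3, the histone marks of 2 silencing systems, were compared with each other in control cardiomyocytes of the mouse, at places where both had been listed. The members are pairs of regions, 1 from the deposited H3K9me2 list and 1 from the deposited H3K27me3 list, that overlap by at least 50% of the length of each on chromosomes 1 to 19. This rule gave 106065 pairs, called matched regions here, which hold 14.9% of the 711506 H3K9me2 regions and 21.1% of the 502009 H3K27me3 regions of these chromosomes. All 4 lists of the series hold 2377384 regions. The series has 18 ChIP-seq libraries, and ChIP-seq sequences the DNA that an antibody pulls down with its target. The groups used here are Cre_H3K9me2 and Cre_H3K27me3, with 2 biological replicates each, and Cre_G9a and Cre_Mef2c as other readouts. All of them come from cardiomyocyte-enriched populations of C57BL/6J mice with the genotype alphaMHC-MerCreMer +/-, so the controls carry the Cre transgene too. MerCreMer is a Cre recombinase that tamoxifen activates, and the alphaMHC promoter drives it in heart muscle cells. The labels give no age and no dose of tamoxifen. The antibodies were anti-H3K9me2 ab1220 from Abcam and 07-449 from Millipore for H3K27me3. An enriched population still holds other heart cells, and how many is not given.

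Dimethylation of lysine 9 on histone H3 is written by the paired enzymes G9a and GLP, and it is known for wide domains over gene-poor, inactive chromatin, much of it at the nuclear lamina. Trimethylation of lysine 27 is written by Polycomb repressive complex 2, and it is known for CpG-rich promoters of genes that direct development in other tissues. Differentiated heart muscle cells keep such genes silent, and textbook accounts place the 2 marks mostly on different genes.

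Promoters of genes whose marks differ are shown first, as examples of sequence only. Each is the 250 bases before the gene start from RefSeq on GRCm38, 5′ to 3′ on the gene's strand, with every CG in capitals. The first 4 belong to genes with higher H3K27me3, and in each a matched region lies over the printed bases. Syt6 (chr3:103574995-103575244, plus strand) holds 13 CG, Bnc1 (chr7:81992300-81992549, minus strand) 39, Lrrc7 (chr3:158561762-158562011, minus strand) 7 and Phox2a (chr7:101818063-101818312, plus strand) 22.
Syt6: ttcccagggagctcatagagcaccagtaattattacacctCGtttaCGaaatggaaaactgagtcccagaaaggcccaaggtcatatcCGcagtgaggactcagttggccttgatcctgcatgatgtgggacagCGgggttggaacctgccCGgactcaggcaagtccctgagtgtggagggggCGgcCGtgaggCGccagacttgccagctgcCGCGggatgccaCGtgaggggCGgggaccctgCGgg
Bnc1: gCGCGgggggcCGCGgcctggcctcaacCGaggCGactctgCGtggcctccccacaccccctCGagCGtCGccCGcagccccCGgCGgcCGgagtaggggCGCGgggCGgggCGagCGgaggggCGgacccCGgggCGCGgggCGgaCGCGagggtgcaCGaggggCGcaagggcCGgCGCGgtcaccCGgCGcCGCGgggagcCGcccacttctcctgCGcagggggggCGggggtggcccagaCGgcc
Lrrc7: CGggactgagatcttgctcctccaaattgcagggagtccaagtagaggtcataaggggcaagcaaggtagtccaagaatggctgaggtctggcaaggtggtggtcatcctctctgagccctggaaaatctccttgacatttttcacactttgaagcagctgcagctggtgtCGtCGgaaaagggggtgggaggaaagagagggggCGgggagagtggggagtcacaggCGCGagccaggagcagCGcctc
Phox2a: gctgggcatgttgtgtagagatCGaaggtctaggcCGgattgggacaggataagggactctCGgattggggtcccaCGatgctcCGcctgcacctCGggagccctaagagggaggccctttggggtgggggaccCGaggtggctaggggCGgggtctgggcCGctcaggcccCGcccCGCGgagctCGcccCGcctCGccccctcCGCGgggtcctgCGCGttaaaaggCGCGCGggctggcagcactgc
The other two belong to genes with high H3K9me2 and low H3K27me3. Cypt12 (chr3:17948194-17948443, plus strand), with the matched region over it, and Smcp (chr3:92589074-92589323, minus strand), with the matched region 1128 bp away, hold 0 CG each.
Cypt12: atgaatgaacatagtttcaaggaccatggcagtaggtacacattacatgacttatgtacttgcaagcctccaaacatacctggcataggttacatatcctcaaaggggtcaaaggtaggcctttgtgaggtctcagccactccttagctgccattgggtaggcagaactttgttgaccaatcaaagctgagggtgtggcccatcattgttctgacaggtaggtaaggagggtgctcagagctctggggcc
Smcp: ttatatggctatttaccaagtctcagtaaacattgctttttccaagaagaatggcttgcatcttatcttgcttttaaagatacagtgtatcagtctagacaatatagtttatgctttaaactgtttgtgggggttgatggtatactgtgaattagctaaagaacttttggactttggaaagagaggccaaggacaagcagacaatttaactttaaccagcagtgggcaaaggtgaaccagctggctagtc
These 6 promoters are examples chosen after their values were seen, and their CG counts are not set against those of other genes. A comparison of CG content over the gene sets is void, since the promoter table has an entry for 105 of the 148 genes called H3K27me3 higher (70.9%) and for 69.4% of all genes with a matched region, too few for such a check.

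Each value is the deposited Cre signal of a region divided by its length and by the median of its library, so that 1 is the middle of that library's listed regions. The library medians were 132.3 and 116.7 per kb for H3K9me2 and 186.2 and 184.3 per kb for H3K27me3, for the first and second value of each. "Higher" therefore always means higher against the library's own median, and the amounts of 2 marks seen by 2 antibodies cannot be compared in any other way here. The depth behind the values is unknown. The regions were listed by the authors for a difference between the knockout and Cre, so ground that both genotypes share equally is missing, and each share below is a share of matched regions. Differences are given as log2 of H3K9me2 minus log2 of H3K27me3, after adding 0.25, which makes low values look less different than they are. They were tested with limma, fitted over all matched regions, genes or bins with Benjamini-Hochberg adjustment at 0.05. With 2 values against 2, the smallest exact two-sided p of a single item is 0.333.

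The libraries differed in how well replicates followed each other. Over the matched regions, log2 values of the 2 H3K9me2 libraries correlated at r = 0.13, no more than H3K9me2 with H3K27me3 (0.13 to 0.16), while the 2 H3K27me3 libraries correlated at 0.32. Over the 2940 genes described below the values were 0.15 for H3K9me2 and 0.64 for H3K27me3, and over 2228 bins of 1 Mb they were 0.38 and 0.81. Between the marks r was 0.07 to 0.16 at genes and 0.13 to 0.37 in bins, in each case with an upper end close to the value between the H3K9me2 libraries. Points on one plot share their listing and their libraries, so these values describe precision: a single H3K9me2 value says little about a single region, and at each scale H3K27me3 was the more repeatable mark.

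At most matched regions neither mark stood out. The median difference was 0.13 on the log2 scale, with library medians over matched regions of 1.06 and 1.09 for H3K9me2 and 0.97 and 0.98 for H3K27me3. H3K9me2 was called higher at 35 of 106065 matched regions (0.033%) and H3K27me3 at 287 (0.271%). At an unadjusted p under 0.05 the order turned, with 5685 (5.36%) against 2446 (2.31%). Both H3K9me2 values lay above both H3K27me3 values at 26197 regions (24.7%), and the reverse held at 15461 (14.6%). The calls rest on limma's trend of variance with level, since without it 0 regions were called in either direction. They also rest on single libraries: H3K9me2 calls were 0.779%, 0.334%, 0.00754% and 0.0104% without the first and second H3K9me2 and the first and second H3K27me3 library. In the same order, H3K27me3 calls were 1.08%, 1.12%, 0.017% and 0.0726%. The overlap rule had a mild edge: the median difference was 0.09 at the 23226 pairs that overlap by 50% to under 55%, and 0.05 at the 14867 pairs just outside, from 45% to under 50%.

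Classes by level sort the same regions without a test. A region had H3K9me2 alone where both of its H3K9me2 values were at least 2 times the library median and both H3K27me3 values under 1 time the median, and H3K27me3 alone in the reverse case. It had both marks where all 4 values were at least 2 and neither where all 4 were under 1. H3K9me2 alone was found at 164 regions (0.155%), H3K27me3 alone at 249 (0.235%), both at 72 (0.0679%), neither at 11064 (10.4%), and 94516 (89.1%) lay between the classes. Regions with a single mark were scattered: the 164 with H3K9me2 alone fell in 153 bins of 1 Mb and the 249 with H3K27me3 alone in 205 bins. Regions with both marks were gathered, since 38 of the 72 lay in 7 bins. With any 1 library left out a class asks for fewer values, and the shares ran from 0.369% to 2.41% for H3K9me2 alone, from 0.367% to 0.529% for H3K27me3 alone and from 0.102% to 0.258% for both.

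Genes were compared next, over matched regions that touch 2 kb around the gene start. Where the strand was lacking, both ends of the gene were used, and "start" then means either end. This was so at 899 of the 2940 genes with a value, and 105 of the 148 genes called H3K27me3 higher had a strand. Of 20665 protein-coding genes, 2940 (14.2%) had such a region, and 2559 of these had exactly 1. H3K27me3 was called higher at 148 genes (5.03%) and H3K9me2 at 4 (0.136%), and the median over all 2940 genes was -0.05. Both H3K27me3 values lay above both H3K9me2 values at 746 genes (25.4%), and the reverse held at 596 (20.3%). At an unadjusted p under 0.05 there were 329 (11.2%) and 111 (3.78%). The difference at the 148 genes ran from -3.20 to -1.20 with a median of -2.03, and the values of the marks did not overlap at any of them. The call itself favours such separation, so this adds no support. Without limma's trend 0 genes were called, with a lowest adjusted p of 0.109, and 0 were called over whole gene spans in place of starts. Without the first H3K27me3 library 1.5% of genes were called H3K27me3 higher and without the second 2.59%, among them 44 and 76 of the 148, while without the first or the second H3K9me2 library the shares were 8.78% and 10.3% and held all 148.

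The 8 genes with the widest gap in the class H3K27me3 alone were Syt6, Foxb1, Sall3, Lrrc7, Zfp385c, Bnc1, Pou4f2 and Six6. Syt6 is a synaptotagmin, a membrane protein of vesicle fusion. Its 2 H3K9me2 values were 0.54 and 0.46 and its H3K27me3 values 6.98 and 5.65, a difference of -3.12 (SE 0.33, limma adjusted p = 0.0018). The matched region, at 103575151 to 103575550 on chromosome 3, lies over the end of the printed promoter and the gene start. Foxb1, a forkhead factor of the embryonic brain on chromosome 9 (69757710 to 69760940), had 0.53 and 0.29 against 5.90 and 4.65. Its difference was -3.07 (SE 0.37, adjusted p = 0.0018 by limma). Sall3, a zinc finger factor of nervous system and limb development, had 0.65 and 0.23 against 5.46 and 5.17. At all 3 genes both H3K9me2 libraries were below their median and both H3K27me3 libraries were more than 4 times theirs. Pou4f2, the factor of retinal ganglion cells, had 0.74 and 0.46 against 5.77 and 4.94. Lrrc7, the gene of densin, a scaffold of the postsynaptic density, had 0.80 and 0.58 against 5.68 and 6.21. Bnc1, a zinc finger factor of epithelia and germ cells, had 0.22 and 0.67 against 4.57 and 4.64. Low H3K9me2 and high H3K27me3 are fixed by the class and the choice by gap, so their return from gene to gene is no support. Six6, an eye and pituitary factor, had 0.35 and 0.38 against 4.29 and 3.04, and Zfp385c, a zinc finger gene, 0.42 and 0 against 3.37 and 3.38. Six6 and Zfp385c were no longer called when either H3K27me3 library was left out. In all, 62 genes (2.11%) had H3K27me3 alone, 3 had H3K9me2 alone (0.102%), 3 had both (0.102%) and 263 had neither (8.95%).

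**Figure D1:**
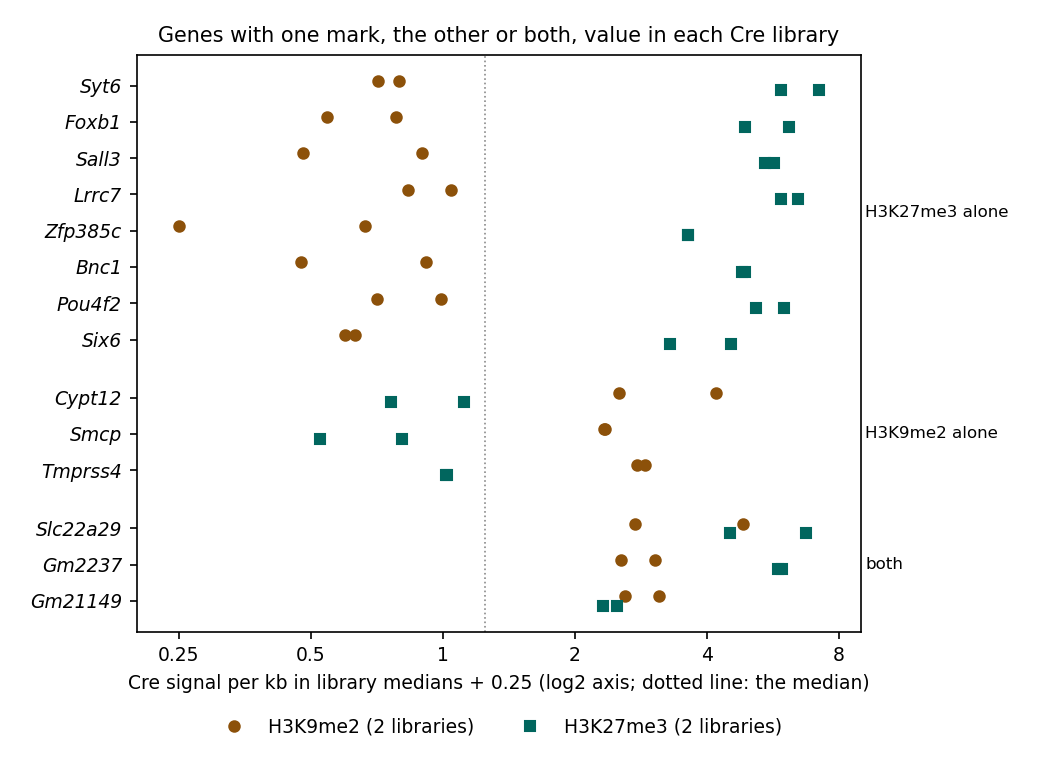
Cre signal per kb at genes with H3K27me3 alone, H3K9me2 alone or both, in library medians plus 0.25 on a log2 axis, with circles for the 2 H3K9me2 libraries and squares for the 2 H3K27me3 libraries. The classes require that circles and squares stand apart at the genes with a single mark. At the 3 genes with both, all 4 symbols must lie right of the dotted median line.

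Many developmental transcription factors had higher H3K27me3. Of 107 such factors known as Polycomb targets, 21 had a matched region at the start. The list, like the others, was chosen with earlier results of these data known. H3K27me3 was called higher at 15 of the 21, against 5.03% of all genes with a region, H3K9me2 at 0, and the median difference was -1.94. Besides Foxb1, Pou4f2 and Six6, the 15 hold Neurog2, which starts the neuronal program, with H3K9me2 values of 1.11 and 1.17 and H3K27me3 values of 6.17 and 7.64. Nkx6-1, a factor of beta cells and motor neurons, had 1.66 and 1.39 against 6.02 and 7.04. Sox17, a factor of endoderm and of arterial endothelium, had 1.94 and 1.31 against 7.75 and 5.63. At Neurog2, Nkx6-1 and Sox17 H3K9me2 was thus above its median, and the genes fall between the classes although their difference was called. The other 9 called were En1, Otx1, Hoxb1, Hoxc13, Six3, Dlx5, Evx1, Emx1 and Hmx2. Lhx4, Irx2, Hand1 and Pax3 had H3K27me3 above H3K9me2 in all values without a call. Hand1, which shapes the embryonic heart, had 0.95 and 1.00 against 2.71 and 1.86, with an adjusted p of 0.202 by limma. The values overlapped only at Prdm14 and Prrx2 of the 21. Both H3K27me3 values were the higher ones at 19 of the 21, beside 25.4% of all genes. The names beyond the first 3 were picked after their values were seen.

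Hox genes set the body axis of the embryo and lie in 4 clusters. Matched regions touched 4 of the 39 starts, and H3K27me3 was called higher at all 4, beside 5.03% of all genes with a region. Hoxc13 had H3K9me2 values of 1.04 and 0.27 and H3K27me3 values of 5.85 and 3.81, a difference of -2.61 (SE 0.45, limma adjusted p = 0.0046). Hoxc9 had 0.81 and 1.02 against 5.56 and 4.36, and Hoxa4 1.03 and 1.68 against 3.84 and 4.15. Hoxb1, where H3K9me2 was 1.37 and 1.89 and H3K27me3 5.26 and 4.15, showed the smallest difference of the 4, -1.40. H3K9me2 at these Hox starts was above its library median in at least 1 library. A median of listed regions is no background level, so this does not show whether H3K9me2 is present there. A wider list of 157 homeobox factors, which includes many of the genes above and was drawn up after values were seen, had 30 with a region, of which 22 were called H3K27me3 higher and 0 H3K9me2 higher, beside 5.03% and 0.136% of all genes, with a median of -1.86.

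Channels and synapse genes gave fewer calls. Potassium channel subunits, a list also added after values were seen, had 20 of 92 genes with a region, of which 6 were called H3K27me3 higher, beside 5.03% of all genes, and the median was -1.24. Kcng3, a modifier subunit, had H3K9me2 values of 0.17 and 1.18 and H3K27me3 values of 6.00 and 5.87, a difference of -3.0 (SE 0.48, limma adjusted p = 0.0034). Kcns2, another modifier subunit, had 0.56 and 0.49 against 3.85 and 3.38, and Kcnh3, a channel of brain neurons, 1.17 and 1.49 against 5.56 and 6.26. At Kcnj8, the pore of the ATP-sensitive channel of vessel walls, 1.05 and 0.93 stood against 2.69 and 2.66, apart but not called (adjusted p = 0.067 by limma). Of 39 neuronal genes 7 had a region and 1 was called, a count too small to set against 5.03%: Grin2b, an NMDA receptor subunit, with 1.08 and 1.38 against 4.12 and 4.30. Over the whole span of Grin2b the difference was 0.02 and over that of Sall3 1.30. The called region of Sall3 lies 429 bp outside its span, so the span value rests on other regions. Grin2b has no strand here, so its called regions lie at an end of the gene that may not be its start.

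The 4 genes called H3K9me2 higher were Cypt12, Tmprss4, Gm38510 and AY761185. Cypt12, a gene of the sperm head's perinuclear theca, had H3K9me2 values of 2.27 and 3.96 and H3K27me3 values of 0.87 and 0.51, a difference of 1.82 (SE 0.41, limma adjusted p = 0.022). Its matched region spans 17948201 to 17948750 on chromosome 3, over the CG-free promoter printed above and the start. Tmprss4, a membrane serine protease of epithelia on chromosome 9 (45172726 to 45204119), had 2.65 and 2.53 against 0.77 and 0.77, a difference of 1.48 (SE 0.37, limma adjusted p = 0.039). Smcp, a protein of the sperm mitochondrial sheath, had 2.08 and 2.09 against 0.56 and 0.28 but missed the threshold (1.84, adjusted p = 0.058 by limma). As the class H3K9me2 alone requires, both H3K9me2 libraries were at least 2 times their median at these 3 genes, and both H3K27me3 libraries below theirs. The called genes Gm38510 and AY761185 had H3K9me2 values of 5.71 and 5.10, and 5.74 and 5.29, with H3K27me3 at or above its median (1.13 and 1.97, and 1.93 and 2.16). The count of 4 is fragile: H3K9me2 was called higher at 1.5% and 0.918% of genes without the first and second H3K9me2 library, and at 0.034% without either H3K27me3 library.

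Away from gene starts, the regions called H3K9me2 higher with the widest gap between the marks were picked after their values were seen. One at 59797501 to 59798250 on chromosome 7, 184244 bp from Snrpn, an imprinted gene of RNA splicing, had H3K9me2 values of 3.74 and 4.92 and H3K27me3 values of 0.81 and 0.53. Another at 146492851 to 146493600 on chromosome 4, among Zfp981, Zfp993 and Zfp992, had 4.89 and 4.41 against 1.09 and 0.86. A further region lay inside Dock2, a gene of white blood cell movement, at 34544801 to 34545400 on chromosome 11, with 3.16 and 4.68 against 0.92 and 0.83. Among the regions called H3K27me3 higher, one lay inside Tfap2c, a factor of trophoblast and germ cells, at 172550651 to 172551350 on chromosome 2. There H3K9me2 was 0.67 and 0.86 and H3K27me3 8.89 and 7.94, a difference of -3.10 (SE 0.30, limma adjusted p = 1.29e-07). Of the 287 regions called H3K27me3 higher 59.6% lay inside a gene span, at a median of 2.54 kb from the nearest gene start. Of the 35 called H3K9me2 higher 17.1% did, at 24.1 kb, and of all matched regions 30.3%, at 81.0 kb.

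Large receptor families gave no calls. Of 1104 olfactory receptor genes, the odour sensors of the nose, 224 had a matched region, 0 were called in either direction, and the median difference was 0.20. Both H3K9me2 values were the higher ones at 71 of them and both H3K27me3 values at 29, beside 20.3% and 25.4% of all genes. Olfr444 had H3K9me2 values of 1.92 and 2.06 and H3K27me3 values of 0.56 and 0.10, a difference of 2.07 (adjusted p = 0.073 by limma), while Olfr1352 had 0.33 and 0.05 against 1.65 and 0.75. Vomeronasal receptors, which sense pheromones, had 46 of 352 genes with a region, 13 with H3K9me2 above and 3 with H3K27me3 above, and a median of 0.27. Genes of both families lie in clusters and share regions of the genome. Clustered protocadherins, cell-surface labels of neurons, had regions at 30 of 57 genes with a median of -0.31 and 0 calls. Of 388 Zfp zinc finger genes 31 had a region: Zfp385c and Zfp503 were called H3K27me3 higher, and Zfp3 had the largest difference the other way without a call, with 1.64 and 2.46 against 0.54 and 0.13 (2.05, adjusted p = 0.071 by limma). In the remaining families, cytochrome P450 genes gave 1 call among 38 with a region, Cyp1b1, and keratins (30), serpins and related secreted proteins (22), defensins (17), collagens (9) and replication-dependent histone genes (6) gave 0. With 5.03% called over all genes, such counts do not set these families apart.

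**Figure D2:**
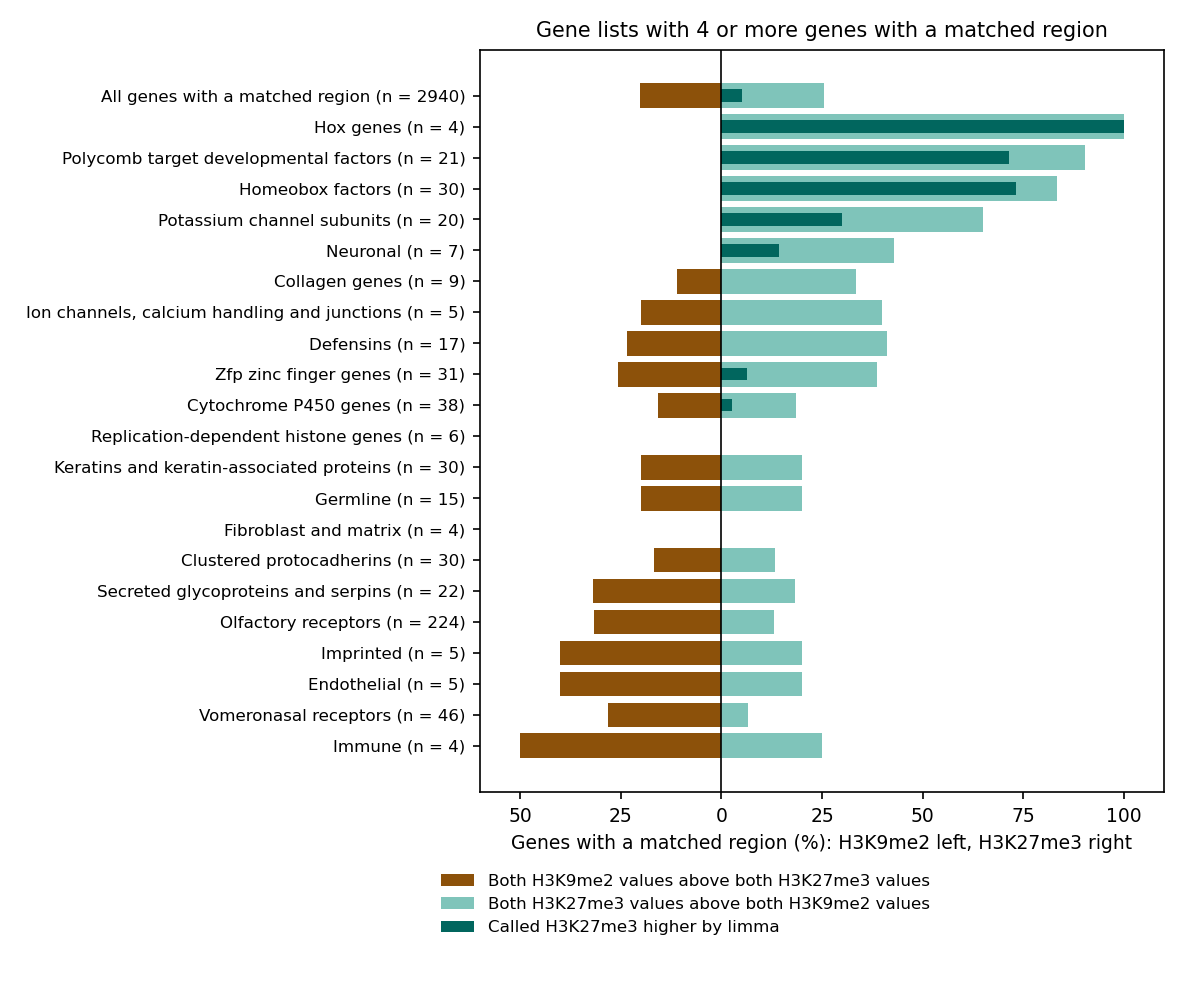
Share of the genes with a matched region, for each list with 4 or more such genes, at which both H3K9me2 values (left, brown) or both H3K27me3 values (right, light green) were the higher ones, with limma calls of H3K27me3 as dark inner bars. Hox genes, Polycomb target factors and homeobox factors reach farthest to the right, and all 2940 genes stand on top as background.

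Few genes of heart muscle had a matched region at the start, so the lists say little on them. Of all protein-coding genes 14.2% had one, beside 10.3% of sarcomere genes and 13.9% of genes of ion channels, calcium handling and junctions. Cardiac transcription factors stood at 7.69%. None of 25 metabolic genes (fatty acid use and mitochondria), none of 26 housekeeping symbols and none of 24 symbols of H3K9 methylation machinery had a matched region at the start (0 genes in each list). Of 29 sarcomere genes 3 had one, with 0 calls. Nebl, the gene of nebulette, had H3K9me2 values of 1.13 and 2.23 and H3K27me3 values of 0.29 and 0.91. At Myl2, the ventricular myosin light chain, 0.36 and 1.33 overlapped 0.02 and 0.88, so H3K9me2 lay apart above H3K27me3 at Nebl and not at Myl2. Of the 3 genes, the values lay apart toward H3K9me2 at 1 and toward H3K27me3 at 1. Of 26 cardiac transcription factors only Gata6 and Esrrg had a region, and the values overlapped at both. Of 36 genes of ion channels, calcium handling and junctions 5 had a region, with 0 calls: Cacna1g, a T-type calcium channel, had H3K27me3 above H3K9me2 and Pkp2, a desmosome protein, the reverse. Among markers of other heart cells, 5 of 20 endothelial, 4 of 24 fibroblast and matrix, 4 of 20 immune and 3 of 14 smooth muscle and pericyte genes had a region, with 0 calls in each list and medians of 0.25, 0.52, 0.18 and -0.31. These are chromatin values, so the labelled cell type cannot be checked here against marker expression, and the part of other cell types in the results was not tested. The remaining lists had 0 calls. Regions were found at 15 of 41 germline genes (median 0.05) and 5 of 28 imprinted genes (0.38). Of 31 Polycomb machinery genes 1 had a region (Phf1, 1.33), as did 1 of 76 ribosomal protein genes (Rpl26, 1.11).

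The class with both marks held 72 regions, beside 164 with H3K9me2 alone and 249 with H3K27me3 alone. The share to be had from each mark by itself was not computed, so 72 is not read as rare. Of the 72 regions, 38 lay in 7 bins of 1 Mb. Regions of this class were wider than others (median 1025 bp against 600 bp) and had library medians of 3.49 and 3.78 for H3K9me2 and 2.93 and 3.06 for H3K27me3. On chromosome 14, 10 of the 72 lay between 6149851 and 6906650, a stretch of predicted genes with many names such as Gm3411, Gm3476 and Gm3594. On chromosome 5, 7 lay between 15061651 and 15548300, around Gm17019 and Gm21149, and on chromosome 4, 10 lay in 2 stretches of zinc finger genes (146068251 to 146933100 with Zfp600 and Zfp981, and 147233701 to 147440400 with Zfp978 and Zfp982). The highest levels were those of 4 regions at Tmem267 and Ccl28 on chromosome 13 (119599301 to 119614100), with medians of 10.8 and 7.75 for H3K9me2 and 10.1 and 5.64 for H3K27me3. A bin of chromosome 8 with 3 of the regions (71129401 to 71859800) holds distinct genes such as Jak3, Abhd8 and Unc13a. The zinc finger and predicted gene families hold near-identical copies. How reads that match several copies were placed is not stated in the labels, so levels of single copies are uncertain. The same limit holds for the region called H3K9me2 higher among Zfp981, Zfp993 and Zfp992. Of genes, 3 fell in the class: Slc22a29, an organic anion transporter (H3K9me2 2.49 and 4.60, H3K27me3 4.27 and 6.49), and the predicted genes Gm2237 (2.29 and 2.81, 5.57 and 5.69) and Gm21149 (2.86 and 2.36, 2.24 and 2.07).

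G9a and Mef2c signal in Cre was read at listed regions that overlap a matched region by at least 50% of the length of each, as readouts the rule did not use. G9a is the writer of H3K9me2, and Mef2c a transcription factor of muscle. At regions with H3K9me2 alone the median G9a value was 1.21 (47 of 164 regions had one) and at regions with H3K27me3 alone 1.23 (92 of 249), beside 1.12 over all matched regions. The 2 single-mark classes therefore differed little in G9a: the quartiles ran from 1.01 to 1.45 and from 0.82 to 1.41. Mef2c medians were 1.24 with H3K9me2 alone, 1.11 with H3K27me3 alone and 1.15 overall. Regions called by limma gave other values. The G9a median was 2.64 at those called H3K9me2 higher, with a value at only 5 of 35. At those called H3K27me3 higher it was 1.14 (93 of 287). Mef2c medians there were 2.11 (9 of 35) and 1.22 (78 of 287). Of the classes, the one with both marks stood apart for both proteins. Its medians were 2.98 for G9a (28 of 72) and 3.17 for Mef2c (38 of 72), while regions with neither had 0.87 and 0.80. High values of 2 marks thus came with high values of 2 proteins at the same regions. The part of signal common to all 4 antibodies in these values was not tested.

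**Figure D3:**
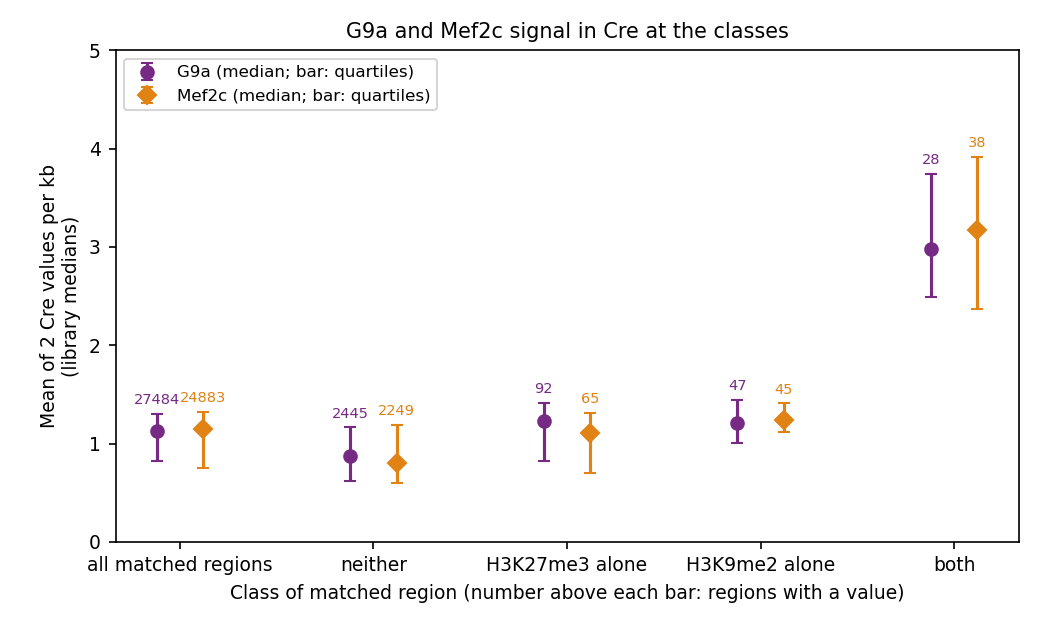
G9a (circles) and Mef2c (diamonds) Cre signal per kb in library medians at matched regions of each class, as the median over regions of the mean of the 2 Cre values, with bars from the lower to the upper quartile and the number of regions with a value above. The class with both marks stands near 3 for both proteins, and the 2 single-mark classes stand close to all matched regions.

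Distance to a gene start separated the marks, where both ends of a gene without a strand count as starts. Within 1 kb of a start, 93 of 1496 matched regions (6.22%) were called H3K27me3 higher, and the share fell in every step outward, to 1.08% from 2 to 5 kb, 0.166% from 20 to 50 kb and 0.027% beyond 500 kb. The median difference went from -0.05 within 1 kb to 0.20 beyond 500 kb. The difference moved with H3K27me3: its library medians fell from 1.16 and 1.09 to 0.87 and 0.92, whereas those of H3K9me2 were 1.05 and 1.12 at the nearest and 1.04 and 1.03 at the farthest regions. H3K9me2 was called higher at 0.155% or less of regions at every distance. Width moved with the marks too: the median difference was 0.21 for regions under 500 bp and -0.04 from 1000 to under 1500 bp, and the part of width in the change with distance was not tested. By chromosome the median difference lay between 0.06 on chromosome 5 and 0.20 on chromosome 3.

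**Figure D4:**
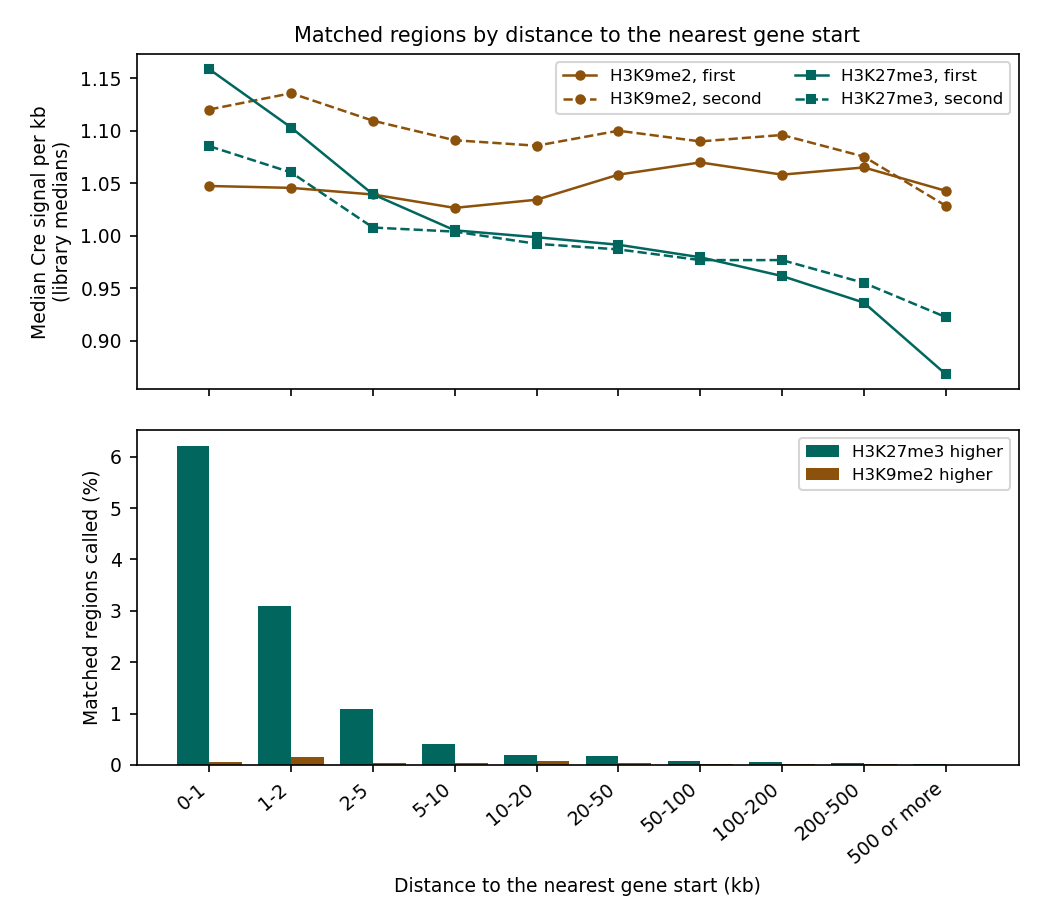
Matched regions by distance to the nearest gene start in kb, with the median Cre signal per kb of each library in library medians (top) and the share of regions called higher for each mark by limma (bottom). Both H3K27me3 lines fall with distance from 1.16 and 1.09 to 0.87 and 0.92, and the called share for H3K27me3 falls from 6.22%.

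Over bins of 1 Mb the difference between the marks changed with gene number, and it moved with H3K27me3. Of 2228 bins with at least 20 matched regions, H3K9me2 was called higher in 495 (22.2%) and H3K27me3 in 83 (3.73%). At an unadjusted p under 0.05 these were 830 (37.3%) and 124 (5.57%), and the values lay apart with H3K9me2 above in 1370 bins (61.5%) and H3K27me3 above in 203 (9.11%). Which mark led in these calls depends on the scaling. With each library set to its median over matched regions, 71 bins were called H3K9me2 higher and 159 H3K27me3 higher. The median difference then moved from 0.15 to 0.04. The leading mark also depends on the listed direction. Over regions that both lists give as lower in the knockout, 86.2% and 0% of bins were called H3K9me2 and H3K27me3 higher. Over those that both give as higher the shares were 0% and 0%, and over opposite directions 0.722% and 8.46%. The shares were 31.5%, 24.4%, 1.17% and 4.44% for H3K9me2, and 4.22%, 7.99%, 0.628% and 0.943% for H3K27me3, without the first and second H3K9me2 and the first and second H3K27me3 library. Gene number went with the calls, and shares by gene number are given for the main scaling only. Of 258 bins with 0 protein-coding genes, 39.5% were called H3K9me2 higher and 0% H3K27me3 higher, while of 225 bins with 20 or more genes 8.44% and 13.8% were. The median difference fell from 0.23 to 0.01 over these groups, and the H3K27me3 medians rose from 0.88 and 0.94 to 1.11 and 1.1, beside 1.12 and 1.12 and then 1.09 and 1.19 for H3K9me2.

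**Figure D5:**
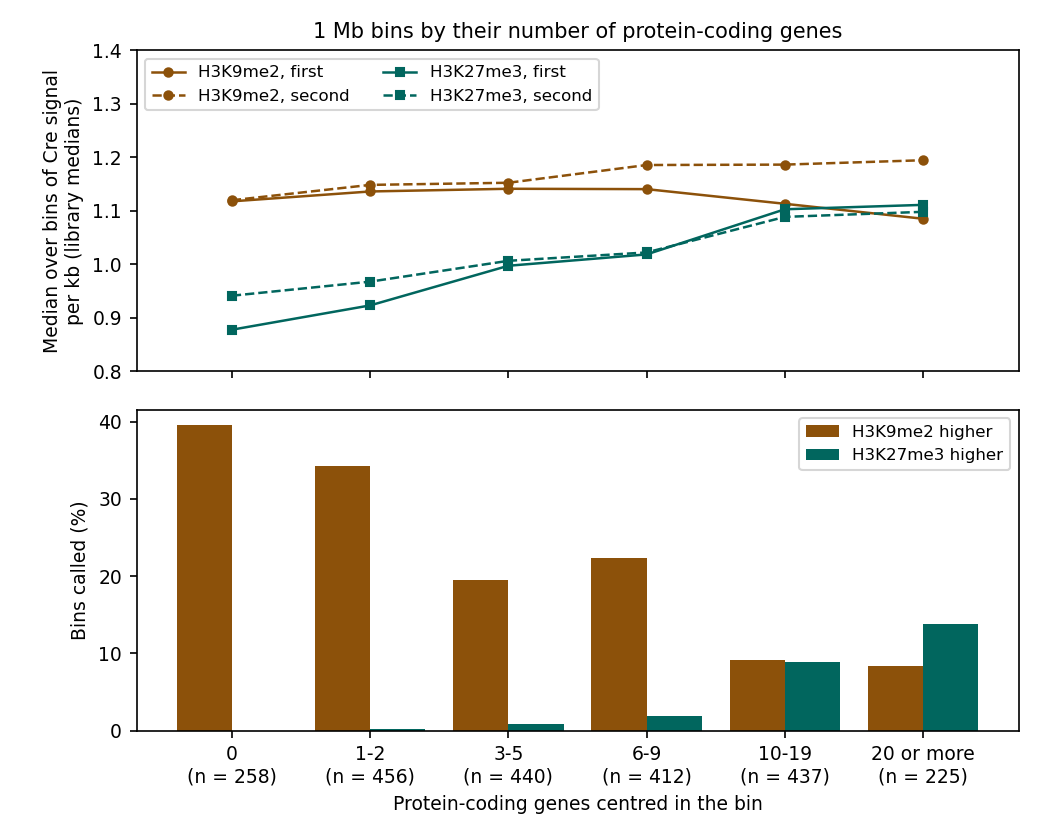
Bins of 1 Mb by the number of protein-coding genes centred in them, with the median over bins of the Cre signal per kb of each library in library medians (top) and the share of bins called by limma for each mark (bottom). The 2 H3K27me3 lines rise with gene number. Called shares, given for the main scaling only, are 39.5% for H3K9me2 and 0% for H3K27me3 in bins with 0 genes. In the most gene-rich bins they are 8.44% and 13.8%.

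Among the bins with the widest gap toward H3K27me3 were neighbours on chromosome 5. From 112000001 to 113000000, with crystallin genes and Sez6l, a membrane protein of neurons, H3K9me2 was 0.87 and 0.94 and H3K27me3 2.0 and 2.04, a difference of -0.98 (SE 0.10, limma adjusted p = 1.08e-08). The next bin had 0.93 and 1.35 against 2.13 and 2.03. The bin of the Hoxb cluster on chromosome 11 (96000001 to 97000000, 35 matched regions) had 1.02 and 1.27 against 2.01 and 1.93, a difference of -0.67 (SE 0.11, limma adjusted p = 0.00014). In the bin of chromosome 3 from 96000001 to 97000000, which holds a cluster of replication-dependent histone genes, both marks were above their medians, at 1.22 and 1.28 against 1.84 and 1.87. Toward H3K9me2, the bin from 85000001 to 86000000 on chromosome 1 had 2.27 and 2.24 against 1.32 and 1.28. Its difference was 0.69 (SE 0.12, limma adjusted p = 0.00024). This bin holds the nuclear body genes Sp100, Sp110 and Sp140 and Gm38510. At Gm38510 G9a was 2.93 and 3.64 and Mef2c 1.12 and 3.1. The part of reads that match several copies was not tested. The bin from 114000001 to 115000000 on chromosome 12, with 0 protein-coding genes centred in it, had 1.53 and 1.64 against 0.94 and 0.92. The bin of chromosome 14 that holds the ribonuclease genes Ear1, Ear10 and Ang5 (43000001 to 44000000) had 2.15 and 2.12 against 1.34 and 1.23. Nrg3, a neuregulin gene of the brain, is the named gene of another on chromosome 14 (1.25 and 1.23 against 0.79 and 0.77), and Etl4 and Arhgap21 lie in one on chromosome 2 (1.29 and 1.37 against 0.84 and 0.80).

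The authors' direction for each region bears on all these counts, because it was drawn from the same Cre values. At 33102 matched regions H3K9me2 was listed higher and H3K27me3 lower in the knockout, and there the median difference was -0.49 with 97 calls for H3K27me3 and 1 for H3K9me2. At the 10656 regions listed the other way round it was 1.02, with 29 and 10. A region listed as lower in the knockout tends to have a high Cre value, so these medians are set by the listing and nothing is read from them. Where both marks were listed higher in the knockout (28401 regions), the median was 0.13 and 132 regions were called H3K27me3 higher against 7 H3K9me2 higher. Where both were listed lower (33906 regions) it was 0.41, with 29 against 17. Of the 148 genes called H3K27me3 higher, H3K9me2 was listed as higher in the knockout, which goes with a low Cre value, at 109. H3K27me3 was listed as higher in the knockout at 74, lower at 64 and in both directions at the rest. Of all matched regions, H3K9me2 was listed as higher at 31.2% with H3K27me3 lower, and at 26.8% with H3K27me3 higher too. Both marks were listed as lower at 31.97%, and only H3K27me3 as higher at the 10656 regions named above. These are shares of regions, and the same shares over all genes with a matched region were not computed.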

How the data were processed

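The submitters' processing notes name BWA 0.7.10-r789, SAMtools 1.1 and the build mm10 (GRCm38). The values come from 4 deposited region lists, in which the authors compare the knockout with Cre, each with 2 Cre and 2 knockout signal values and a score; caller, scale, normalization and depth of the signal are unstated in labels and files, so no count model was used. The order (Cre first) follows the list names. H3K9me2 and H3K27me3 regions were matched at a reciprocal overlap of at least 0.5, and Cre values were taken per kb and divided by their library median over chromosomes 1 to 19. Log2 values (pseudocount 0.25) were tested with limma's trended empirical Bayes fit (version 3.58.1, R 4.3.3) and checked on simulated data. Gene values are width-weighted means over matched regions within 2 kb of the start, or of both ends for 899 of the 2940 genes, whose strand the RefSeq promoter table lacks. Bins of 1 Mb needed at least 20 matched regions. Genes were named by the widest gap between the marks, 8 per class and up to 3 per list and direction, and 5 bins per direction; some results under this rule are not reported here. The members, the 29 gene lists and the tests were chosen with earlier results of these data known. The homeobox and potassium channel lists were added after values were seen. Alternatives changed the overlap, scaling, pseudocount, filters, windows, bins, class levels, listed directions and trend, and left out each value.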

Additional observations from a re-analysis of the deposited data

How the results depend on the processing

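No paired analysis was possible because the deposited values carry no replicate numbers. Shares below are of the matched regions, genes or bins that each setting left, H3K9me2 before H3K27me3 unless one mark is named, and the cause of each change was not tested. With an overlap of 0.25, calls were 0.0213% of regions for H3K9me2, 7.96% of genes and 8.56% of bins for H3K27me3, and H3K27me3 alone held 0.462% of regions. With 0.75, bins gave 1.49% and 0%, and H3K27me3 alone held 0.14%. Scaling to the median over matched regions moved the median difference of regions from 0.13 to 0.02, gave 3.19% and 7.14% of bins, and left H3K9me2 alone at 0.0622%. Without limma's trend (planned for regions, added after seeing the data for genes and bins) regions gave 0% and 0%, as did genes. Pseudocount 1 gave H3K9me2 0.272% of genes. Windows of 5 kb gave 0.0499% and 2.16% of genes and whole gene spans 0% and 0%, where Grin2b (0.0197) and Sall3 (1.30) turned direction. The span of Sall3 leaves out its called region. Bins of 250 kb gave 1.14% and 0.883%. Class levels of 1.5 gave 1.74% H3K9me2 alone, 0.767% H3K27me3 alone and 0.587% both, and levels of 3 gave 0.00283%, 0.0792% and 0.0189%.

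Regions that both lists give as lower in the knockout had calls at 0.056% and 0.112% of regions, 0.206% and 1.75% of genes and 86.2% and 0% of bins, with H3K9me2 alone at 0.0885% and H3K27me3 alone at 0%. Those that both give as higher had H3K27me3 calls at 0.63% of regions, H3K9me2 calls at 0% of genes, 0% and 0% of bins, and 0.0141%, 0.401% and 0.0211% in the classes of H3K9me2 alone, H3K27me3 alone and both. Opposite directions gave 0.345% and 0.633% of regions, 0.632% of genes for H3K9me2, 0.722% and 8.46% of bins, and 0.297% H3K9me2 alone. With 1 value left out, a fit that assumes the lone value to vary like the others, calls ranged from 0.00754% to 0.779% and from 0.017% to 1.12% of regions. Genes ranged from 0.034% to 1.5% and from 1.5% to 10.3%, and bins from 1.17% to 31.5% and from 0.628% to 7.99%. The classes ranged from 0.369% to 2.41% for H3K9me2 alone, 0.367% to 0.529% for H3K27me3 alone and 0.102% to 0.258% for both. The 2 values per mark, H3K9me2 values that hardly correlate between libraries, and an unknown depth limit every single region.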
